A study of Danio rerio with 6 samples.

Results

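Leukocytes and inflammatory cytokines of the injured heart were examined here through the RNA of 10 zebrafish genes, out of 32520 in the deposited count table. They are 2 macrophage genes (*mpeg1.1* and *csf1ra*), 2 genes of all leukocytes (*lcp1* and *coro1a*), the myeloid regulator *spi1b*, 2 neutrophil genes (*mpx* and *lyz*), 2 inflammatory cytokine genes (*il1b* and *tnfa*) and the chemokine receptor gene *cxcr4b*. The genes were chosen by identity, 9 by their Ensembl identifier and *cxcr4b* (ENSDARG00000041959) by its symbol in the paper's supplement. The part of the supplement used is the one the paper cites for its differentially expressed genes. If only called genes are listed there, the rise of *cxcr4b* is no further evidence. No measured value was read for the rule, but the genes were chosen with earlier results of these data known. RNA came from ventricular apexes of adult zebrafish of AB background, taken 7 days after cryoinjury (7 dpci), in which the ventricle is touched with a cold probe. There are 3 libraries from *mdka*-KO fish and 3 from WT (mdka+/+) fish of the same crosses, and each library is a pool of 3 apexes, so n counts pools and not hearts. *mdka* encodes Midkine-a, a secreted cytokine, and the *mdka*-KO fish are mutants for the CRISPR/Cas9 allele cn105. The paper detected no Mdka protein in injured hearts of these mutants. The paper keeps these mutants apart from heterozygous (mdka+/cn105) fish. All 6 libraries come from injured hearts at the same time point, so genotype is the only comparison.

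Cryoinjury kills part of the ventricular wall and draws blood cells into the wound. Neutrophils arrive early and carry granule proteins such as myeloperoxidase and lysozyme. Macrophages follow, clear dead cells, present antigen and, in zebrafish, also take part in building and removing the scar. Interleukin-1β and Tnf are the signals with which activated myeloid cells call in further leukocytes, and Cxcr4 is the receptor through which cells follow the chemokine Cxcl12. In a pool of tissue, fewer cells of a type and less RNA per cell cannot be told apart.

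Library totals lay between 18940128 and 25195457 expected counts, and values are given in CPM, the count scaled by library size and TMM factor. The targeted gene *mdka* (ENSDARG00000036036) had 81.8, 132 and 139 CPM in *mdka*-KO replicates 2, 3 and 4, against 429, 731 and 1070 CPM in WT replicates 1, 2 and 4. In the principal components of all tested genes, the first component (33.5% of the variance) set WT replicate 1 apart, at 67.97, from the other 5 libraries, which lay between -24.1 and 3.71. That library was the highest or the lowest of the 6 for all 10 leukocyte and cytokine genes, and for 48.7% of all tested genes. It was the highest for 7 of the 10 (*lcp1*, *coro1a*, *spi1b*, *mpx*, *lyz*, *il1b* and *tnfa*) and the lowest for *mpeg1.1*, *csf1ra* and *cxcr4b*. The second component (23.5% of the variance) set WT replicate 4 apart, at -51.6 against -9.41 to 26.6 for the others, and that library was an extreme for 42.8% of all tested genes. Where leaving out a library changes the call of 1 of the 10 genes, the value without it is given.

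The genotypes were compared with edgeR's quasi-likelihood test on 17879 genes, and a gene is said to have risen or fallen in *mdka*-KO hearts where its unadjusted p was under 0.05, the threshold the study set. Of the 9 leukocyte and cytokine genes that passed the filter on low counts, 3 rose (*mpeg1.1*, *csf1ra* and *cxcr4b*) and 2 fell (*lyz* and *il1b*). Among all genes tested, 12.1% were called, 5.64% higher and 6.42% lower. After Benjamini-Hochberg adjustment none of the 9 stayed under 0.05 in edgeR or in limma-voom, as 0.00559% of all genes did in edgeR. In DESeq2 2 of the 9 did (*csf1ra* and *mpeg1.1*), beside 424 among all genes. With 3 pools against 3, an exact permutation test of a single gene cannot give a two-sided p below 0.1. Groups did not overlap for *mpeg1.1*, *csf1ra* and *cxcr4b*, with *mdka*-KO above WT (8.75% of all tested genes), and for *lyz*, with *mdka*-KO below WT (8.97%). Scaling by library size alone, which put the median log2 difference over all genes at 0.13 instead of -0.01 and changed the split of calls from 1009 higher and 1148 lower to 2081 and 501, left 3 of the 9 genes risen and 2 fallen.

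**Figure D1:**
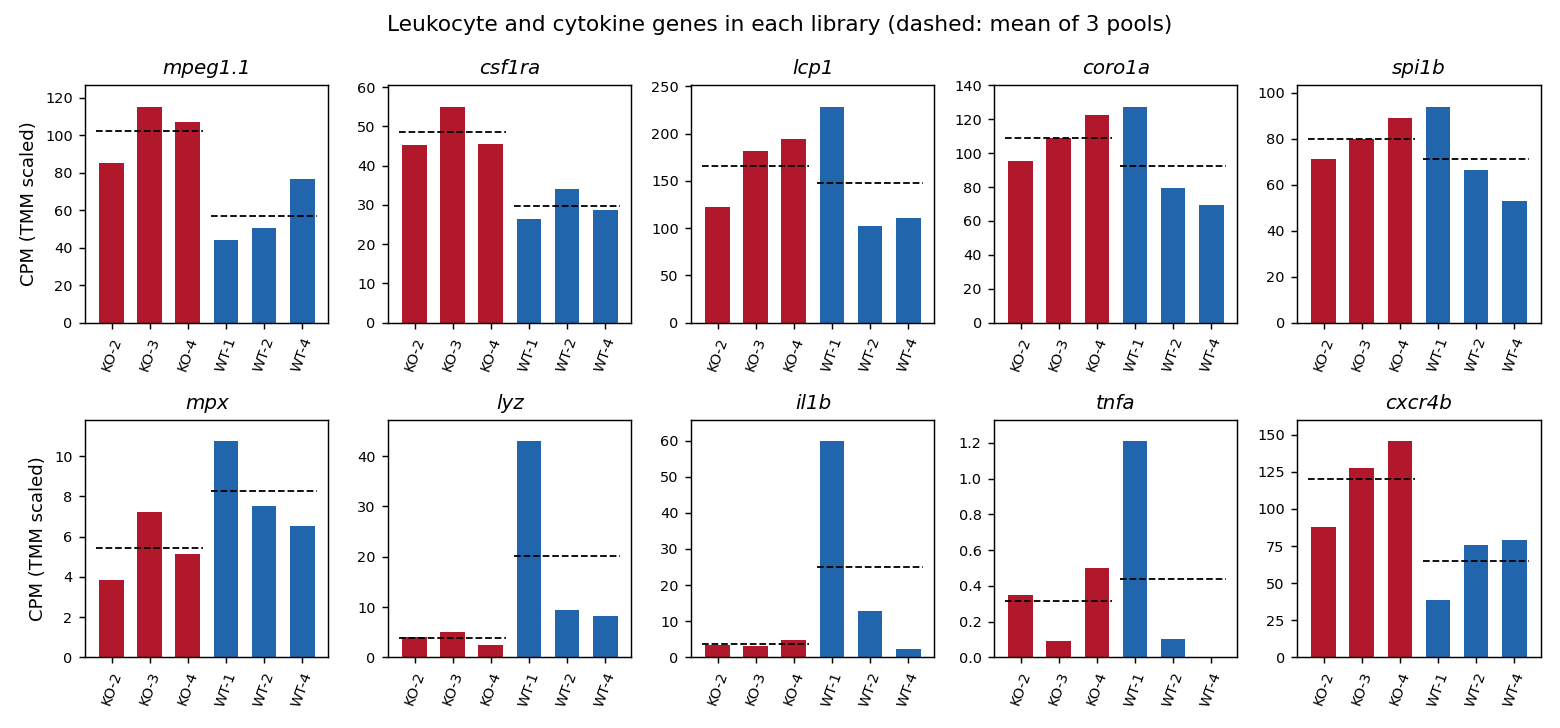
CPM (vertical axis, linear, from 0) of the 10 leukocyte and cytokine genes in each library, with *mdka*-KO replicates in red, WT replicates in blue and the mean of each genotype dashed. WT replicate 1 has the tallest bar for *lyz* (42.9 CPM) and *il1b* (59.8 CPM) and the shortest for *mpeg1.1* (44.1 CPM) and *cxcr4b* (38.7 CPM).

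Both macrophage genes rose in *mdka*-KO hearts. *mpeg1.1* (ENSDARG00000055290), which encodes perforin-2, a pore-forming protein that macrophages use against engulfed bacteria, had 85.3, 115 and 107 CPM in *mdka*-KO replicates 2, 3 and 4 and 44.1, 50.5 and 76.7 CPM in WT replicates 1, 2 and 4. Every *mdka*-KO pool lay above every WT pool, and the closest values were 85.3 and 76.7 CPM. The means were 103 ± 15.5 CPM (SD, n = 3) and 57.1 ± 17.3 CPM (SD, n = 3), a log2 fold change of 0.84 (standard error 0.22, 95% interval 0.33 to 1.36). In edgeR the unadjusted p was 0.00549 and the adjusted p 0.221.

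*csf1ra* (ENSDARG00000102986) encodes a receptor for colony stimulating factor 1, on which macrophages depend for survival and growth, and which zebrafish pigment cells also carry. It had 45.3, 55.1 and 45.5 CPM in *mdka*-KO replicates 2, 3 and 4 and 26.5, 34.1 and 28.8 CPM in WT replicates 1, 2 and 4. The genotypes were again apart, and *csf1ra* varied least of the 10 genes within WT relative to its mean. Between the genotypes the log2 fold change was 0.71 (standard error 0.14, 95% interval 0.38 to 1.03; unadjusted p = 0.00111, adjusted p = 0.164, edgeR). Leaving out each library in turn kept *mpeg1.1* between 0.69 and 1.12 and *csf1ra* between 0.60 and 0.81, with an unadjusted p under 0.05 in each of these fits.

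The genes of all leukocytes and the myeloid regulator did not pass the test with all 6 libraries. Among the fits that left out a library, only that without WT replicate 1 called them. *lcp1* (ENSDARG00000023188) encodes L-plastin, which bundles actin in white blood cells. Its levels were 123, 182 and 194 CPM in *mdka*-KO replicates 2, 3 and 4 and 229, 102 and 111 CPM in WT replicates 1, 2 and 4. WT replicate 1 was the highest library and WT replicates 2 and 4 the lowest. The log2 fold change was 0.17 (95% interval -0.58 to 0.93, unadjusted p = 0.609 from edgeR), and it was 0.64 (95% interval 0.16 to 1.11, unadjusted p = 0.0153 from edgeR) without WT replicate 1.

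*coro1a* (ENSDARG00000054610), for the leukocyte actin regulator coronin-1A, had 95.2, 109 and 123 CPM in *mdka*-KO replicates 2, 3 and 4 and 128, 79.3 and 69.7 CPM in WT replicates 1, 2 and 4. Its log2 fold change was 0.24 (95% interval -0.29 to 0.77, unadjusted p = 0.324 from edgeR) with all libraries and 0.55 (95% interval 0.22 to 0.88, unadjusted p = 0.00550 from edgeR) without WT replicate 1. *spi1b* (ENSDARG00000000767) encodes Pu.1, the transcription factor that directs blood progenitors to the myeloid fate. Its levels were 71.3, 79.9 and 89.1 CPM in *mdka*-KO and 94.1, 66.6 and 53.1 CPM in WT, in the same order of replicates. The log2 fold change of *spi1b* was 0.17 (95% interval -0.31 to 0.65, unadjusted p = 0.442 from edgeR), against 0.42 (95% interval 0.07 to 0.77, unadjusted p = 0.0249 from edgeR) without WT replicate 1. These 3 genes thus placed WT replicate 1 above all *mdka*-KO pools and WT replicates 2 and 4 below them.

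Without WT replicate 1, 6 of the 9 tested genes rose (*mpeg1.1*, *csf1ra*, *lcp1*, *coro1a*, *spi1b* and *cxcr4b*) and 1 fell (*lyz*), beside 6.54% of all tested genes that rose and 6.65% that fell in that fit. For the same 6 genes the *mdka*-KO pools all lay above WT replicates 2 and 4, as they did for 15.7% of all tested genes. The adjusted p-values of the 9 genes in that fit lay between 0.180 and 0.636, from edgeR.

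**Figure D2:**
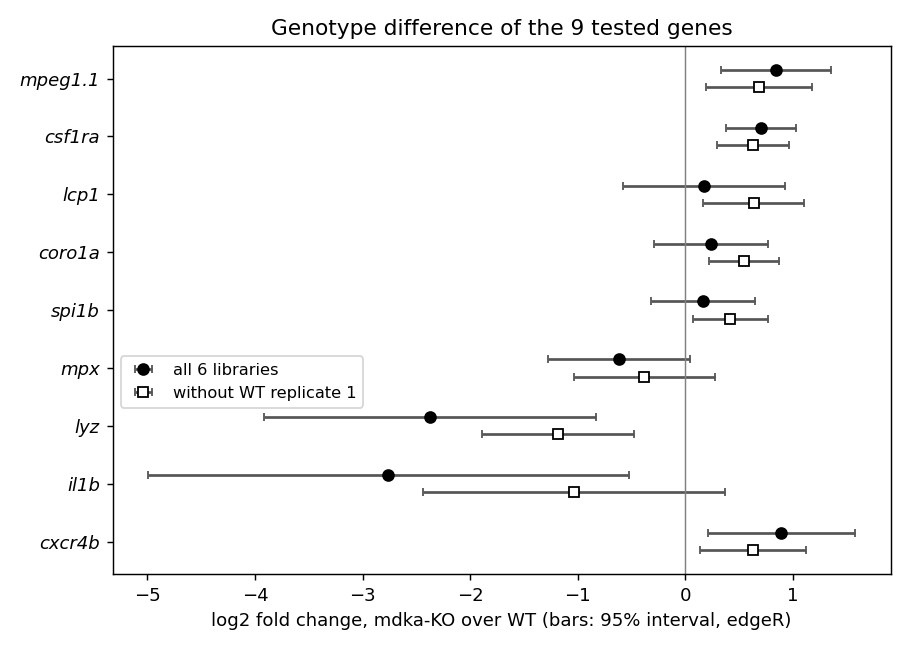
Log2 fold change of *mdka*-KO over WT with its 95% interval (horizontal axis) for the 9 tested genes, from edgeR with all 6 libraries (filled circles) and without WT replicate 1 (open squares). The intervals of *lcp1*, *coro1a* and *spi1b* lie above 0 only in the fit without that library, and that of *il1b* reaches 0.37 there.

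Of the neutrophil genes, *lyz* fell and *mpx* was lower without passing the test. *lyz* (ENSDARG00000057789), for the lysozyme of neutrophil granules, had 4.13, 5.11 and 2.44 CPM in *mdka*-KO replicates 2, 3 and 4 and 42.9, 9.49 and 8.22 CPM in WT replicates 1, 2 and 4. Every *mdka*-KO pool was below every WT pool, and WT replicate 1 was 4.85 times the mean of the other WT pools. The log2 fold change was -2.37 (standard error 0.66, 95% interval -3.92 to -0.83, unadjusted p = 0.00773 and adjusted p = 0.237 from edgeR). Without WT replicate 1 it was -1.18 (95% interval -1.89 to -0.48, unadjusted p = 0.00537 from edgeR), so *lyz* still fell, by a smaller amount.

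*mpx* (ENSDARG00000019521), for the peroxidase of neutrophil granules, was measured from few reads, 99 to 231 counts per library. It had 3.86, 7.24 and 5.13 CPM in *mdka*-KO replicates 2, 3 and 4 and 10.7, 7.52 and 6.53 CPM in WT replicates 1, 2 and 4. The genotypes overlapped through *mdka*-KO replicate 3, which lay between the lower WT pools. Its log2 fold change was -0.61 (95% interval -1.28 to 0.05, unadjusted p = 0.0647 from edgeR). It was -0.89 (unadjusted p = 0.0193) without *mdka*-KO replicate 3 and -0.76 (unadjusted p = 0.0369) without WT replicate 4 in the same edgeR test, whereas it was -0.38 (unadjusted p = 0.213) without WT replicate 1.

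The cytokine *il1b* (ENSDARG00000098700) had a low and narrow range in *mdka*-KO hearts and a wide one in WT hearts. Its counts were 85, 67 and 94 in *mdka*-KO replicates 2, 3 and 4, which is 3.31, 3.11 and 4.68 CPM. They were 1287, 246 and 45 in WT replicates 1, 2 and 4, which is 59.8, 12.8 and 2.37 CPM. WT replicates 1 and 2 were above all *mdka*-KO pools and WT replicate 4 below all of them, so the genotypes overlapped. The log2 fold change was -2.76 (standard error 0.96, 95% interval -4.996 to -0.52, unadjusted p = 0.0218 and adjusted p = 0.317 from edgeR). It did not pass without WT replicate 1 (-1.03, unadjusted p = 0.126), without *mdka*-KO replicate 2 (-2.70, unadjusted p = 0.0605) or without *mdka*-KO replicate 3 (-2.66, unadjusted p = 0.0634) in edgeR, nor in limma-voom (-1.81, unadjusted p = 0.184).

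*tnfa* (ENSDARG00000009511), which encodes the cytokine Tnf and is used in zebrafish to mark inflammatory macrophages, was hardly detected. Its counts were 9, 2 and 10 in *mdka*-KO replicates 2, 3 and 4 and 26, 2 and 0 in WT replicates 1, 2 and 4. The count of 0 allows up to 0.158 CPM (3 counts) in WT replicate 4, as far as counting error goes. *tnfa* was the 1 gene of the 10 removed by the filter on low counts, and a fit without that filter gave a log2 fold change of -0.51 with a 95% interval from -2.98 to 1.96. A difference between the genotypes was not detectable at this depth.

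*cxcr4b*, the Cxcl12 receptor that zebrafish leukocytes and many migrating cells carry, had 87.8, 127 and 146 CPM in *mdka*-KO replicates 2, 3 and 4 and 38.7, 75.9 and 79.3 CPM in WT replicates 1, 2 and 4. The genotypes did not overlap, and WT replicates 2 and 4 lay close below the lowest *mdka*-KO pool while WT replicate 1 lay far below. Its log2 fold change was 0.90 (standard error 0.29, 95% interval 0.21 to 1.58, unadjusted p = 0.0169 and adjusted p = 0.286 from edgeR). It was 0.63 (unadjusted p = 0.0188) without WT replicate 1 and 0.73 without *mdka*-KO replicate 4, where the unadjusted p was 0.0620 in the same edgeR test.

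Ratios between these genes within a library do not depend on how libraries are scaled. There were 0.695, 0.635 and 0.552 *mpeg1.1* counts per *lcp1* count in *mdka*-KO replicates 2, 3 and 4, and 0.193, 0.493 and 0.691 in WT replicates 1, 2 and 4. Relative to *lcp1*, *mpeg1.1*, *csf1ra* and *cxcr4b* overlapped between the genotypes, and WT replicate 1 was the lowest library for each of them. The ratio of *cxcr4b* to *lcp1* was nearly the same in 5 libraries, from 0.701 to 0.751, and 0.169 in WT replicate 1. Per *lcp1* count, the levels of these 3 genes in WT replicates 2 and 4 thus lay in or near the range of the *mdka*-KO pools.

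On this scale both neutrophil genes stood apart, *mpx* among them, although *mpx* overlapped between the genotypes in CPM. In WT replicates 2 and 4 the divisor genes *lcp1* and *coro1a* were lower than in every *mdka*-KO pool. The ratio cannot tell a higher divisor from a lower *mpx* level. The ratio of *lyz* to *lcp1* was 0.0337, 0.0281 and 0.0126 in *mdka*-KO replicates 2, 3 and 4 and 0.188, 0.0926 and 0.0741 in WT replicates 1, 2 and 4. That of *mpx* to *lcp1* was 0.0315, 0.0399 and 0.0265 in *mdka*-KO and 0.0470, 0.0734 and 0.0589 in WT. Both ratios were lower in every *mdka*-KO pool than in every WT pool, relative to *lcp1* and relative to *coro1a*. Of all tested genes, 1.95% lay below in this way relative to *lcp1* and 8.19% relative to *coro1a*, and 0.755% and 1.22% lay above. On the log2 scale the mean of the *lyz* to *lcp1* ratio was -5.45 ± 0.76 (SD, n = 3) in *mdka*-KO and -3.20 ± 0.70 (SD, n = 3) in WT. For *mpx* it was -4.96 ± 0.30 (SD, n = 3) and -4.09 ± 0.32 (SD, n = 3). The ratio of *spi1b* to *coro1a* was steady, between 0.726 and 0.840 over all 6 libraries.

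**Figure D3:**
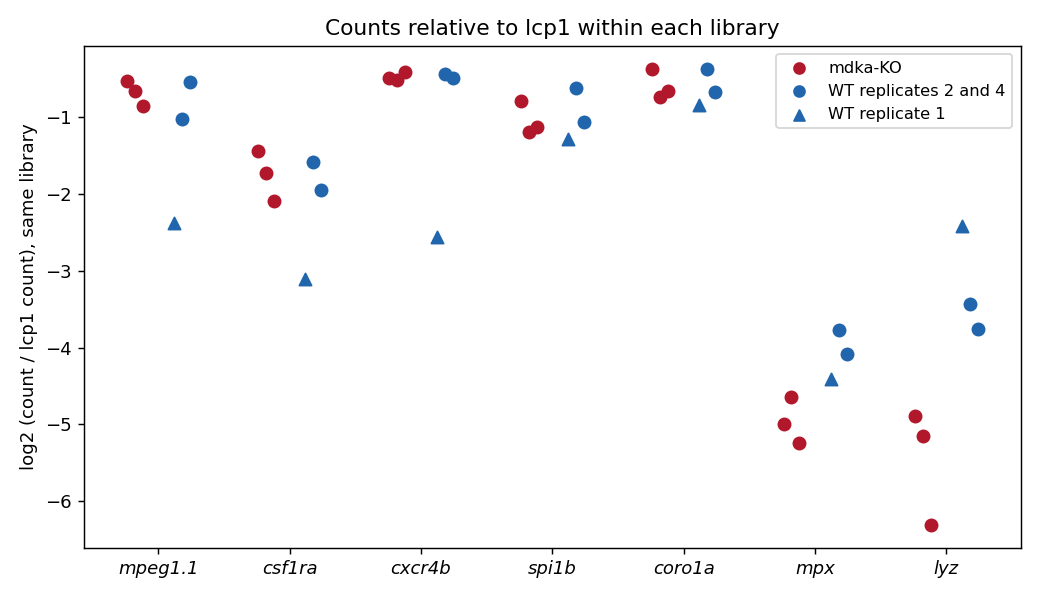
Log2 of the count of each gene over the *lcp1* count of the same library (vertical axis), with *mdka*-KO pools in red, WT replicates 2 and 4 as blue circles and WT replicate 1 as a blue triangle. For *mpeg1.1*, *csf1ra* and *cxcr4b* the triangle lies below every other point, and for *mpx* and *lyz* the red points lie below the blue ones.

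Other macrophage genes rose as well. The counts of this list and of those below stand beside all tested genes, of which 5.64% rose and 6.42% fell. Of 27 entries of a macrophage list, 17 were matched, and *mpeg1.2*, *mrc1a* and *mfap4.1* were among those not matched. Of its 16 tested genes, 11 rose in *mdka*-KO hearts and none fell. Their median log2 fold change was 0.64, against -0.01 for all tested genes. Their summed level was 2436 to 2688 CPM in *mdka*-KO and 1661 to 1798 CPM in WT. The count ranged from 7 (without *mdka*-KO replicate 3) to 11 over the fits that left out a library, and it was 11 without WT replicate 1. *cd74b* and *cd74a*, which encode the invariant chain that guides antigen-presenting MHC class II proteins, rose by 0.79 and 0.68 on the log2 scale (standard errors 0.18 and 0.17). *cd74a* was at 590, 745 and 676 CPM in *mdka*-KO replicates 2, 3 and 4 and 330, 467 and 462 CPM in WT replicates 1, 2 and 4, without overlap. *irf8*, the transcription factor that zebrafish macrophages need to form, rose by 0.47 (standard error 0.12), from 28.6 ± 1.31 CPM (SD, n = 3) in WT to 39.6 ± 4.44 CPM (SD, n = 3). *mafbb*, for a factor of the macrophage lineage, rose by 0.86 (standard error 0.23). The unadjusted edgeR p-values of these 4 genes lay between 0.00243 and 0.00617. The list also holds cathepsin and complement genes that other cells of the heart express.

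The ligand genes of the Csf1 receptor were not called. *il34* had 40.5, 38.8 and 56.6 CPM in *mdka*-KO replicates 2, 3 and 4 and 63.5, 50.4 and 23.7 CPM in WT replicates 1, 2 and 4, a log2 fold change of -0.02 (95% interval -0.79 to 0.75). That of *csf1a* was 0.00 (95% interval -1.17 to 1.18), and *csf1b*, with 1 to 13 counts per library, was not tested. The paralogous receptor gene *csf1rb* had a log2 fold change of 0.25 (95% interval -0.65 to 1.14). Of the 4 genes of this list that were tested, *csf1ra* was the 1 gene called.

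Of 18 tested genes of a pan-leukocyte list, 6 rose and none fell, with a median log2 fold change of 0.37. The number risen was 13 without WT replicate 1 and 2 without *mdka*-KO replicate 4. *arpc1b*, for a subunit of the Arp2/3 actin complex, had 215, 228 and 283 CPM in *mdka*-KO replicates 2, 3 and 4 and 173, 151 and 147 CPM in WT replicates 1, 2 and 4, a log2 fold change of 0.63 (standard error 0.14). *ptprc*, for the leukocyte surface phosphatase CD45, rose by 0.41 (95% interval 0.01 to 0.80, unadjusted p = 0.0470 from edgeR), and its genotypes overlapped. The call of *ptprc* was lost without *mdka*-KO replicate 3 or 4 and without WT replicate 2 or 4. *lcp2a*, *laptm5* and *syk*, for a signalling adaptor, a lysosomal membrane protein and a kinase of immune receptors, rose by 0.54, 0.43 and 0.34. Of these, *lcp2a* was called whichever library was left out, *laptm5* was not called without *mdka*-KO replicate 4 or WT replicate 2, and *syk* was not called without *mdka*-KO replicate 2 or 4 or WT replicate 4.

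Of 15 tested genes of a neutrophil list, 3 fell and none rose, with a median log2 fold change of -0.40 and a summed level of 496 to 571 CPM in *mdka*-KO and 381 to 796 CPM in WT. Without WT replicate 1 the median was 0.03, and 9 of 15 genes had a log2 fold change above 0, as 1 did with all libraries. The fallen genes were *npsn*, for a neutrophil protease (-1.35, standard error 0.50), *pglyrp6*, for a peptidoglycan recognition protein (-1.096, standard error 0.39), and *csf3a*, a ligand that drives neutrophil production (-0.92, standard error 0.29). *npsn* had 6.32, 10.03 and 6.77 CPM in *mdka*-KO replicates 2, 3 and 4 and 34.3, 16.8 and 7.43 CPM in WT replicates 1, 2 and 4, so the genotypes overlapped through WT replicate 4. Without WT replicate 1 the calls of *npsn* (-0.66, unadjusted p = 0.110 from edgeR) and *pglyrp6* (-0.98, unadjusted p = 0.0609 from edgeR) were lost. *npsn* was also not called without *mdka*-KO replicate 2 or 4, nor *pglyrp6* without *mdka*-KO replicate 3 or 4 or WT replicate 4, whereas *csf3a* was called whichever library was left out. Over the fits that left out a library, the number fallen ranged from 1 to 8. It was 1 without *mdka*-KO replicate 4, and without WT replicate 1, where 1 gene rose. It was 8, of 16 genes tested in that fit, without WT replicate 4. The number fallen among all genes also moved, from 676 to 1380 over those fits. *mmp9*, a matrix protease that neutrophils and macrophages release, was nearly equal in the *mdka*-KO pools (mean 40.1 CPM) and at 90.6, 126 and 12.8 CPM in WT replicates 1, 2 and 4, a log2 fold change of -0.93 (95% interval -2.42 to 0.57).

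The subunits of the phagocyte NADPH oxidase, which makes the superoxide of the respiratory burst, varied widely within WT. Of 7 tested genes, the chaperone gene *cybc1* rose (0.49, standard error 0.15), though not without *mdka*-KO replicate 4 (0.41, unadjusted p = 0.0559 from edgeR), and none fell. *cybb*, for the catalytic subunit, had 68.7, 79.8 and 76.1 CPM in *mdka*-KO replicates 2, 3 and 4 and 170, 81.1 and 42.5 CPM in WT replicates 1, 2 and 4. *ncf1*, for a cytosolic subunit, had 32.6, 41.4 and 42.6 CPM in *mdka*-KO and 97.6, 50.2 and 23.9 CPM in WT. For both genes the *mdka*-KO pools lay within the WT range, and their log2 fold changes were -0.39 (95% interval -1.38 to 0.60) and -0.56 (95% interval -1.57 to 0.44). Both signs turned without WT replicate 1, to 0.27 for *cybb* and 0.07 for *ncf1*. Without WT replicate 1, 4 of the 7 genes rose, and without WT replicate 4, 2 fell. Among all tested genes 6.54% rose without WT replicate 1, and at most 1380 genes fell in any fit that left out a library.

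**Figure D4:**
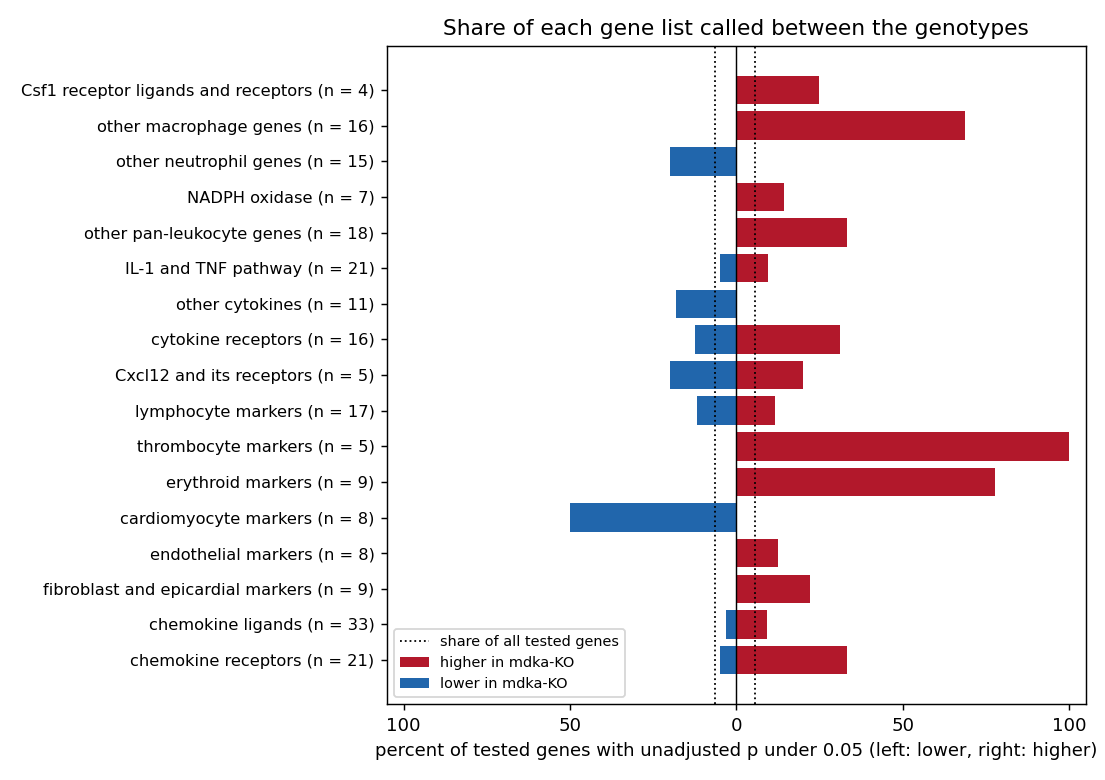
Percent of the tested genes of each list with an unadjusted edgeR p under 0.05 (horizontal axis), higher in *mdka*-KO to the right in red and lower to the left in blue, with the shares of all tested genes (5.64% and 6.42%) dotted. The macrophage bar stands for 11 of 16 genes and the neutrophil bar for 3 of 15.

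Of 21 tested genes of the IL-1 and Tnf pathways, 2 rose and 1, *il1b* itself, fell, and their median log2 fold change was -0.02. *pycard*, the adaptor of the inflammasome that activates interleukin-1β, rose by 0.72 (standard error 0.22), and *il1fma*, a further gene of the interleukin-1 family, by 0.45 (standard error 0.17). *pycard* was not called without *mdka*-KO replicate 3, and *il1fma* not without any 1 of the *mdka*-KO pools or WT replicate 4. *nfkbiaa*, for an inhibitor of NF-κB that NF-κB itself induces, had 48.1, 42.1 and 47.1 CPM in *mdka*-KO replicates 2, 3 and 4 and 152, 89.8 and 31.1 CPM in WT replicates 1, 2 and 4, a log2 fold change of -0.99 (unadjusted p = 0.0694 from edgeR), and -0.40 without WT replicate 1. Its order within WT was that of *il1b*. The paralog *tnfb* had a log2 fold change of -0.64 (95% interval -1.74 to 0.46), and the receptor genes *tnfrsf1a* and *tnfrsf1b* -0.18 (95% interval -0.59 to 0.23) and 0.17 (95% interval -0.24 to 0.59). Without WT replicate 4, 9 of the 22 genes tested in that fit fell and 1 rose. Without WT replicate 1, none of 21 fell and 4 rose. Among all tested genes 6.54% rose and 6.65% fell without WT replicate 1. The number fallen among all genes ranged from 676 to 1380 over the fits that left out a library, against 1148 with all libraries.

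Among 11 tested genes of a list of other cytokines, *csf3a* and *il11a* fell and none rose. *il11a*, for an interleukin of the gp130 family that acts on fibroblasts and heart muscle, had 8.19, 2.28 and 6.97 CPM in *mdka*-KO replicates 2, 3 and 4 and 43.7, 50.7 and 4.11 CPM in WT replicates 1, 2 and 4. It fell by 2.49 on the log2 scale (standard error 0.84; edgeR, unadjusted p = 0.0184), and the genotypes overlapped through WT replicate 4. The call was lost without *mdka*-KO replicate 3 (-2.12) and without WT replicate 2 (-2.04). The remaining 13 genes of that list in the table were too low to test. Among them *il10*, which restrains inflammation, had 0 to 4 counts per library. *il6*, singled out after its values were seen, had 4, 10 and 9 counts in *mdka*-KO replicates 2, 3 and 4 and 76, 21 and 7 counts in WT replicates 1, 2 and 4.

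Of 33 tested chemokine ligand genes, 3 rose (*ccl35.1*, *ccl35.2* and *cxcl11.3*) and 1 fell (*cxcl18b*). These counts lie near the shares of all tested genes, of which 5.64% rose and 6.42% fell. Leaving out a library gave from 0 (without *mdka*-KO replicate 4) to 3 risen, and from 1 to 4 (without WT replicate 1) or 6 (without WT replicate 4) fallen. Over the same fits 676 to 1380 of all genes fell. *cxcl18b*, a chemokine that attracts neutrophils in zebrafish, had 29.0, 26.2 and 35.9 CPM in *mdka*-KO replicates 2, 3 and 4 and 222, 132 and 26.0 CPM in WT replicates 1, 2 and 4. It fell by 2.06 on the log2 scale (standard error 0.63; edgeR, unadjusted p = 0.0125), and the change was -1.38 (unadjusted p = 0.0417 from edgeR) without WT replicate 1. *cxcl8a*, the ortholog of interleukin-8, singled out after its values were seen, had 4.17, 4.23 and 12.6 CPM in *mdka*-KO and 55.2, 14.3 and 3.00 CPM in WT, a log2 fold change of -1.80 (unadjusted p = 0.0883 from edgeR), which was -0.31 (unadjusted p = 0.671 from edgeR) without WT replicate 1. In *il1b*, *cxcl18b* and *cxcl8a* alike, WT replicate 1 was the highest library, WT replicate 2 the next and WT replicate 4 the lowest of all. In *il11a* and *mmp9*, WT replicate 2 was the highest instead. Among all tested genes, WT replicate 1 was the highest for 23.6% and WT replicate 4 the lowest for 20.6%.

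**Figure D5:**
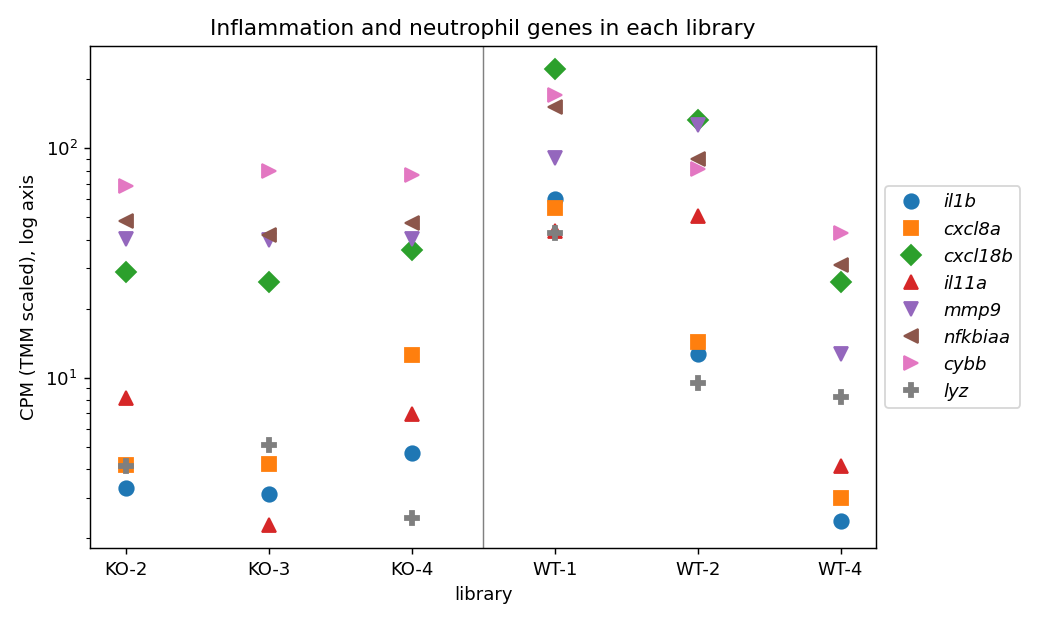
CPM (vertical axis, log scale) of 8 inflammation and neutrophil genes in each library, *mdka*-KO left of the line and WT right of it. WT replicate 1 lies above the *mdka*-KO pools for all 8 genes, and WT replicate 4 lies below all of them for *il1b* (2.37 CPM), *cxcl8a* (3.00 CPM), *cxcl18b* (26.0 CPM), *mmp9* (12.8 CPM), *nfkbiaa* (31.1 CPM) and *cybb* (42.5 CPM). The 8 genes were picked for display, *cxcl8a* after its values were seen, so how many share this order is no evidence. *pycard* and *il1fma*, which rose, are not shown. Among all tested genes, WT replicate 1 was the highest for 23.6% and WT replicate 4 the lowest for 20.6%.

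Of 21 tested chemokine receptor genes, 7 rose, *cxcr4b* among them, and 1 fell. *ccr12a*, *cxcr3.2* and a gene listed as CCR8, which encode receptors for further chemokines, rose by 0.85 (standard error 0.23), 0.62 (standard error 0.18) and 0.67 (standard error 0.21). *cxcr3.2*, a receptor of zebrafish macrophages, had 25.6, 36.8 and 34.9 CPM in *mdka*-KO replicates 2, 3 and 4 and 17.3, 22.9 and 22.9 CPM in WT replicates 1, 2 and 4, without overlap. Over the fits that left out a library, between 5 and 7 receptor genes rose.

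None of the tested partners of *cxcr4b* was called higher. A gene listed as ACKR3, a receptor that takes up Cxcl12, fell by 0.34 (standard error 0.13, unadjusted p = 0.0330 from edgeR), a call that was lost under scaling by library size alone and when any 1 library other than WT replicate 1 was left out. The ligand genes listed as CXCL12 and *cxcl12b* had log2 fold changes of 0.08 (95% interval -0.47 to 0.63) and -0.50 (95% interval -1.25 to 0.25). *cxcl12b* was called lower without WT replicate 1 (-0.74, unadjusted p = 0.0353 from edgeR), and 1 of these ligand genes was called lower without *mdka*-KO replicate 3. The second gene listed as CXCR4 was low, between 0.418 and 1.45 CPM, with a log2 fold change of 0.28 (95% interval -0.81 to 1.36).

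Of 16 tested cytokine receptor genes, 5 were called higher and 2 lower. Leaving out a library gave 4 or 5 higher, and none lower without any 1 of the *mdka*-KO pools or WT replicate 1, 1 without WT replicate 2 and 4 without WT replicate 4. Over the same fits 676 to 1380 of all genes were lower. Under scaling by library size alone 6 were higher and none lower. *tnfrsf9a*, a costimulatory receptor of lymphocytes, rose by 1.14 (standard error 0.29), from 7.60 ± 1.34 CPM (SD, n = 3) in WT to 16.8 ± 6.67 CPM (SD, n = 3). *tnfrsf21*, for a death receptor, *il2rga*, for the shared receptor chain of interleukin-2, and *il10ra*, for the receptor of the restraining cytokine interleukin-10, rose by 0.76, 0.65 and 0.56. For each of these 4 genes every *mdka*-KO pool lay above every WT pool, as for 8.75% of all tested genes. They were named for the smallest p-values of the list, so this separation is no further evidence. The median log2 fold change of the list was 0.02.

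Markers of other cells moved between the genotypes too. All 5 tested thrombocyte markers and 7 of 9 erythroid markers rose, with median log2 fold changes of 0.89 and 0.76, and 4 of 8 cardiomyocyte markers fell, with a median of -0.40. The summed erythroid level was 4630 to 10177 CPM in *mdka*-KO and 2979 to 5201 CPM in WT, and that of the thrombocyte markers 107 to 134 CPM and 48.3 to 71.1 CPM. The summed cardiomyocyte level was 35280 to 43512 CPM in *mdka*-KO and 49121 to 55545 CPM in WT, and under scaling by library size alone none of the 8 was called. The thrombocyte genes *gp1bb* and *mpl* rose by 1.101 and 1.31, and the erythroid genes *gata1a* and *alas2* by 0.87 and 0.99. Over the fits that left out a library, 3 to 5 thrombocyte and 4 to 7 erythroid markers rose and 1 to 4 cardiomyocyte markers fell. Among 17 tested lymphocyte markers 2 rose (*cd4-2.2* and *cd247*) and 2 fell (*cd28* and *tox*), with summed levels of 57.4 to 115 CPM in *mdka*-KO and 63.3 to 83.3 CPM in WT. Leaving out a library gave 2 to 6 risen (6 without *mdka*-KO replicate 2) and 1 or 2 fallen, and none fell under scaling by library size alone. Of 8 endothelial markers 1 rose (*tie1*), and of 9 fibroblast and epicardial markers 2 rose (*col1a1a* and *col1a2*), with summed levels of 3594 to 4471 CPM in *mdka*-KO and 2623 to 3185 CPM in WT for the latter list, whose median log2 fold change was 0.02 with 5 of 9 genes above 0. The part of blood or of muscle content in the differences of the macrophage genes was not tested.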

How the data were processed

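RNA-seq was analysed from 3 *mdka*-KO and 3 WT pools of 3 apexes at 7 dpci. The authors prepared stranded libraries, sequenced 60 base single reads, trimmed with cutadapt, mapped to the GRCz11 transcriptome of Ensembl release 99 and estimated gene levels with RSEM. The deposited values are expected counts for 32520 genes, not normalized. RSEM divides reads shared between gene copies, and 7 of the 10 genes had whole counts in every library (the others are *csf1ra*, *lyz* and *il1b*). Nothing says that pools came from separate clutches, so p-values judge the genotype difference against the spread between pools, not between clutches.

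Counts were rounded to whole numbers, filtered with filterByExpr (minimum count 10, minimum total 15, 17879 genes left), TMM-scaled and tested with edgeR 4.0.16 (R 4.3.3), with genotype as the only term. Adjustment for multiple testing (Benjamini-Hochberg) covered every tested gene. Standard errors were derived from the fold change and its F statistic, and intervals from the test's degrees of freedom. In simulated data run on 17669 genes, 173 of 197 tested genes changed by 1 on the log2 scale had an unadjusted p under 0.05, as did 4.93% of unchanged genes. The simulation gave every gene the same dispersion (0.0555) and set no library apart. Its rate therefore does not hold for genes that varied more, such as *lyz* and *il1b*.

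Gene lists (17, with 278 of 318 entries matched by symbol) and the 10 genes were chosen with earlier results of these data known, and list counts are descriptions without a test. Symbols came from a table that names 29201 of the genes, partly in the human style, where *mpx* is listed as EPX. Named list genes are those among the 4 smallest p-values of a list or fixed by name, apart from *il6* and *cxcl8a*. Groups are the genotypes in the labels. Alternatives were DESeq2 1.42.0, limma-voom (limma 3.58.1), other scalings and filters, a replicate block and each library left out. No sequences are shown.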

Additional observations from a re-analysis of the deposited data

How the results depend on the processing

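The 10 genes gave 5 calls, 3 higher and 2 lower in *mdka*-KO hearts. With 1 library left out at a time (6 fits), the calls ranged from 4 to 7, those higher from 2 to 6 and those lower from 1 to 3, and limma-voom gave 1 lower. The log2 fold change of *lcp1* ranged from -0.034 (without WT replicate 2) to 0.64 and that of *spi1b* from -0.0058 (without WT replicate 4) to 0.42. Calls over all genes ranged from 1332 to 2772 in those 6 fits (656 to 1392 higher, 676 to 1380 lower) against 2157, and were 2081 higher and 501 lower with library size only. Genes of the lists other than the 10 gave 42 to 80 calls in those 6 fits, against 65. Each of those fits filtered the genes anew, so the number of tested genes in a list could differ. Genes with an adjusted p under 0.05 numbered 1 in edgeR, 424 in DESeq2, 2 in limma-voom, 19 with library size only, 19 with no filter and 0 to 3 in the 6 fits.

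Both genotypes have a replicate 2 and a replicate 4, but no source says that equal numbers pair pools. Deviations from the genotype means correlated at 0.09 for number 2 and 0.00 for number 4 across genes. Taking replicate number as a block, a fit that compares the genotypes within those numbers gave 4 genes with an adjusted p under 0.05. It spends a term on every replicate number, so hardly any residual degrees of freedom remain over the 6 libraries, and its p-values are less secure. WT replicate 1 and *mdka*-KO replicate 3 have no partner of the same number, so they do not enter the genotype difference in that fit. It is thus no independent check on the fit without WT replicate 1. It called 5 of the 9 tested genes higher (*mpeg1.1*, *csf1ra*, *lcp1*, *coro1a* and *cxcr4b*) and 2 lower (*lyz* and *mpx*). Over the 7 alternatives that kept all libraries, this fit among them, 940 to 2081 of all genes were called higher and 501 to 1308 lower. In the block fit *il1b* was at -0.61 (unadjusted p = 0.366 from edgeR). The median of the neutrophil list was 0.06 in it, against -0.40. Depth limits *tnfa* (0 to 26 counts per library) and *mpx* (99 to 231). It also limits *lyz* and *il1b*, which had fewer CPM than *mpx* in *mdka*-KO replicates 3 and 4.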
